A study of Mus musculus with 26 samples.

Results

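The genes described here encode the subunits of voltage-gated sodium and calcium channels. They are 37 mouse protein-coding genes, of 48709 gene identifiers in the deposited tables, chosen by a symbol of the form Scn plus a number plus a or b, or one that starts with Cacna, Cacnb or Cacng. Of the 37, 12 are sodium channel genes (9 pore subunits and 3 beta subunits). The other 25 are calcium channel genes (9 pore subunits, 4 alpha2delta, 4 beta and 8 gamma subunits).

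Voltage-gated channels open when a membrane depolarises. Sodium channels carry the rising phase of action potentials in neurons, heart and skeletal muscle, and calcium channels turn a depolarisation into calcium entry, which triggers transmitter release at synapses. A pore subunit suffices to form the channel, and the beta and alpha2delta subunits set its gating and its delivery to the surface. Most gamma subunits of the Cacng family act mainly as partners of AMPA-type glutamate receptors and are then called TARPs. In the cochlea, hair cells use calcium channels to release transmitter onto the auditory nerve, and immature hair cells also carry sodium currents.

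The samples came from cochleae of mice at postnatal day 1, cultured in medium with EGF and FGF and exposed to DAPT, a gamma-secretase inhibitor that blocks Notch signalling, or to the solvent DMSO. At 24 h, cells positive for a Lfng-GFP reporter were sorted from DAPT and from DMSO cultures (3 RNA libraries each). At 48 h, 3 groups carrying a TdT reporter switched on by Lfng-CreER were sorted. They were permissive cells (DAPT, TdT and Atoh1-GFP), nonpermissive cells (DAPT, TdT without Atoh1-GFP) and control cells (DMSO, TdT without Atoh1-GFP), with 3, 3 and 2 RNA libraries. ATAC (open chromatin) and H3K27ac CUT&RUN (a histone mark found at active regulatory DNA) had 2 libraries in each of these groups. Lfng is itself a Notch-dependent supporting cell gene and Atoh1 the transcription factor that starts hair cell formation, so both sorts rest on genes of the process under study. Whether libraries of a group are separate animals is not given in the labels, and the p-values below may therefore reflect technical spread. In sorted bulk samples, fewer cells of a type and less RNA per cell cannot be told apart.

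Libraries held 10666050 to 13158897 expected counts at 24 h, by a poly(A) kit, and 2165338 to 4896374 at 48 h, from total RNA with a single-cell kit, so the times were fitted apart. The labelled cell types were checked against 10 hair cell markers and 10 supporting cell markers. Their summed levels, in CPM (expected counts scaled to library size with TMM factors), were 4140 to 6970 for hair cell markers in DAPT libraries and 1270 to 1520 in DMSO libraries. At 48 h they were 4930 to 6460 in permissive, 91.6 to 169 in nonpermissive and 20.6 to 36.5 in control libraries. Supporting cell markers summed to 7370 to 9110 CPM in DAPT and 14700 to 16400 CPM in DMSO libraries, and to 765 to 1010 in permissive, 6040 to 11400 in nonpermissive and 8780 to 12500 in control libraries. DMSO cells sorted at 24 h thus carried hair cell transcripts, and at 48 h permissive cells had the lowest sum of supporting cell markers. Tecta made up most of that sum in nonpermissive and control libraries (means of 169 CPM in permissive, 5490 in nonpermissive and 6720 in control cells). Fgfr3, on the same list, overlapped between these groups (407, 433 and 458 CPM in that order). The lists also hold Atoh1 and Lfng, on which the sorts rest. Of 8 neuronal markers, Prph and Slc17a7 had no counts in permissive or nonpermissive libraries. The sum of all 8 was 42.9 to 118 CPM in permissive, 3.07 to 10.6 in nonpermissive and 6.92 to 55.1 in control libraries, and 2 of the 4 tested were higher in permissive than in control cells. The part of these markers in the results was not tested.

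The upstream sequences of 4 genes are shown because their RNA was higher in both comparisons of permissive cells and their start sites lay in the RefSeq table. That table (build GRCm38.p6, the genome of the mm10 files) held windows for 29 of the 37 genes. Missing were Scn3a, Scn3b, Cacna1a, Cacna1g, Cacna1h, Cacng1, Cacng4 and Cacna2d4. Each sequence is the 250 bases before a start site, 5′ to 3′ on the strand of the gene. Cacng5 and Cacnb2 also had an inner start site in that table, and only the window of the outer start is shown. Capitals mark CANNTG, the E-box recognised by basic helix-loop-helix factors such as Atoh1, searched on both strands.
Scn11a, chr9:119825457-119825706, minus strand: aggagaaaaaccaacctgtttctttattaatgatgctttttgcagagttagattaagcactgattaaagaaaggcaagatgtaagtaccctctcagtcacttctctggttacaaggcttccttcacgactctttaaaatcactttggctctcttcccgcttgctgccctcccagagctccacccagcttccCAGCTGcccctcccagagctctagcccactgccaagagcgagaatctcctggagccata
Cacng5, chr11:107915056-107915305, minus strand: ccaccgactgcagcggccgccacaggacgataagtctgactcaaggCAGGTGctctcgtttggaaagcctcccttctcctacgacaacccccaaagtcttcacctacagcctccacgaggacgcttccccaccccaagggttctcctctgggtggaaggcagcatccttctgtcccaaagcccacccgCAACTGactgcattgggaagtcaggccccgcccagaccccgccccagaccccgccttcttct
Cacna1b, chr2:24763153-24763402, minus strand: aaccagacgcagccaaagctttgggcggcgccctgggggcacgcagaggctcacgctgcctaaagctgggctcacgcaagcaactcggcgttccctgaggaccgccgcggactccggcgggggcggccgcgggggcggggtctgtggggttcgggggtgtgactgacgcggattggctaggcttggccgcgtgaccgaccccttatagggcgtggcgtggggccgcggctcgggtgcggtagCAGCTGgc
Cacnb2, chr2:14604056-14604305, plus strand: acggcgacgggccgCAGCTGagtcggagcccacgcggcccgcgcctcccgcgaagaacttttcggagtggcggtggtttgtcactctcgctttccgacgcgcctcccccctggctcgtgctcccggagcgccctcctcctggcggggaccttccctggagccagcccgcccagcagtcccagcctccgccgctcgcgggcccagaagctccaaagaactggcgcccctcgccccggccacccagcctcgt

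CAGCTG, which reads the same on both strands, was the E-box shared by 3 of these windows. It lay from 59 to 54 bases before the start of Scn11a, from 8 to 3 bases before that of Cacna1b and from 236 to 231 bases before the outer start of Cacnb2. The window of Cacng5 held no CAGCTG, but CAGGTG beginning 204 bases and CAACTG beginning 62 bases before the start. CAGCTG occurred in 13.0% of the 32851 upstream windows of all genes and CANNTG in 66.2%; among windows of the channel genes the shares were 25.6% (10 of 39 windows, some genes having several) and 64.1%. A match of letters is a description and not a binding site.

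With DAPT for 24 h, the sodium channel genes called in the main edgeR fit rose, and calcium channel genes changed in both directions. Of the 37 genes, 20 passed the filter on low counts. Among these, 6 rose at an adjusted p under 0.05 (edgeR quasi-likelihood test, Benjamini-Hochberg over all 15174 genes tested), where 11.5% of all genes rose, and 4 fell, where 14.2% of all genes fell. The 6 were Scn11a, Scn9a, Cacng5, Cacnb2, Cacnb3 and Cacna1b, and the 4 were Cacng4, Cacna1e, Cacnb4 and Cacna2d1. The median log2 fold change of the 20 was 0, against 0.0093 over all genes tested. Among 6 sodium channel genes tested, 2 rose and 0 fell in edgeR (0 lower at an unadjusted p under 0.05; DESeq2, which also tested Scn3a, called that gene lower). Among 14 calcium channel genes tested, 4 rose and 4 fell.

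Among sodium channel pores, Scn11a encodes a tetrodotoxin-resistant channel best known from pain-sensing neurons. It was at 74.5, 74.7 and 61.3 CPM in DAPT libraries, against 6.03, 3.81 and 6.5 CPM in DMSO libraries. The groups lay far apart, with a log2 fold change of 3.69 ± 0.19 (SE; edgeR adjusted p = 4.7e-06, higher in 3 of 3 DAPT libraries). Scn10a, another channel of pain-sensing neurons, did not pass the filter, at 0.0908, 0.453 and 0.468 CPM in DAPT and 0 in DMSO libraries (12 counts and 0 counts). With no filter on low counts it was called higher (edgeR adjusted p = 0.0411). Scn3a, which did not pass the filter either, went the other way. It was at 0.817, 0.453 and 0 CPM in DAPT and 3.77, 0.58 and 3.74 CPM in DMSO libraries (15 and 89 counts). With no filter it was called lower (edgeR adjusted p = 0.00974).

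Scn9a, a pore subunit of peripheral sensory and sympathetic neurons on chromosome 2, was at 3.18, 2.19 and 2.25 CPM in DAPT libraries, against 0.471, 0 and 0.0891 CPM in DMSO libraries. It was a low gene in every library, with 88 counts in the DAPT group and 6 in the DMSO group, and its log2 fold change was 3.75 ± 0.69 (edgeR adjusted p = 0.00422). Scn8a, the pore subunit of axon initial segments, had 16.9, 14.2 and 12.3 CPM in DAPT and 9.14, 12.2 and 8.38 CPM in DMSO libraries. The lowest DAPT library was just above the highest DMSO library, and the test did not pass (log2 fold change 0.54 ± 0.20, edgeR adjusted p = 0.0753). Scn2a, a pore of central axons, averaged 0.998 ± 0.371 CPM with DAPT and 1.4 ± 0.261 with DMSO (SD, n = 3 each).

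The beta subunits are single-pass membrane proteins with an immunoglobulin-like domain that change gating and bind other cells. Scn3b was at 25.0, 27.6 and 8.43 CPM in DAPT and 12.6, 15.7 and 16.7 CPM in DMSO libraries. DAPT replicate 3 fell below every DMSO library, and Scn3b did not pass the test (log2 fold change 0.44 ± 0.37, edgeR adjusted p = 0.423). In that library the sum of the 8 neuronal markers was 233 CPM, against 520 and 666 in the other DAPT libraries and 268 to 294 in DMSO libraries. These markers did not move together. Nefl (111 CPM, against 310 and 395 in the other DAPT libraries) and Nefm (98.4, against 194 and 254) made up most of the sum. Tubb3 (12.3 CPM, against 4.09 and 6.35) and Elavl4 (8.99, against 8.26 and 7.71) were highest in DAPT replicate 3. Hair cell markers summed to less there (4140 CPM, against 5790 and 6970). The part of these markers in the result was not tested. Without DAPT replicate 3, 9 channel genes rose and 5 fell, Scn3b, Cacna2d2 and Scn8a being among those that then rose. Scn2b averaged 0.58 ± 0.318 CPM with DAPT and 1.13 ± 0.447 CPM with DMSO.

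**Figure D1:**
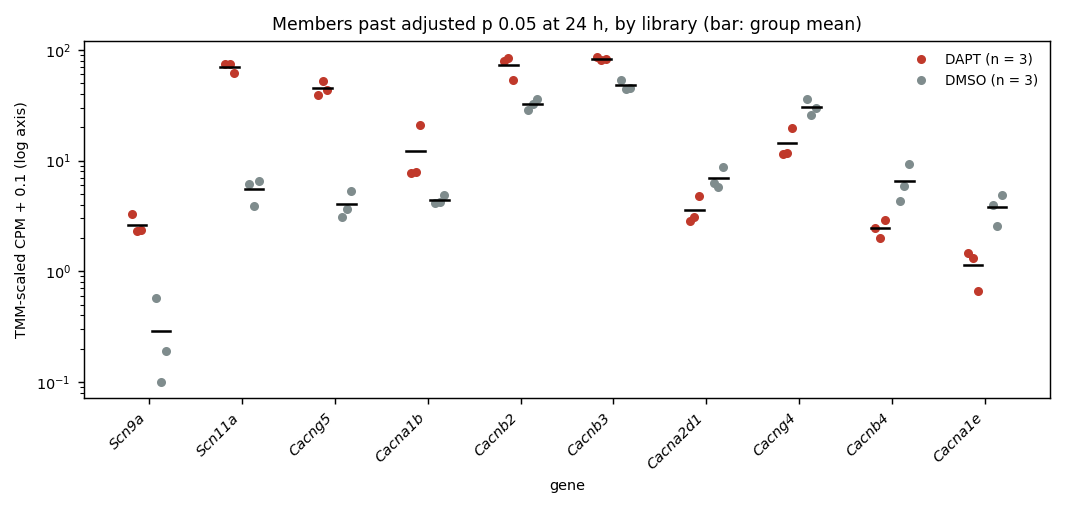
The 10 channel genes past adjusted p 0.05 at 24 h, ordered by log2 fold change: each point is the TMM-scaled CPM of 1 library plus 0.1 on a log axis, DAPT (n = 3) left of DMSO (n = 3), and bars are group means. The groups do not overlap for any of the 10 genes, and 1 DAPT library stands high for Cacna1b. The genes were chosen by the test on these same libraries, so this separation adds no evidence.

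Calcium channel pores went in both directions. Cacna1b, the pore of the N-type channel of presynaptic terminals, was at 7.54, 7.86 and 21 CPM in DAPT libraries and 4.05, 4.14 and 4.81 CPM in DMSO libraries. DAPT replicate 3 was the high one. The log2 fold change was 1.48 ± 0.40 (edgeR adjusted p = 0.0272), and the call was lost on leaving out any 1 of the 3 DMSO libraries (log2 fold change then 1.43 to 1.56). Without DAPT replicate 3 the log2 fold change was 0.83, and the call held. Cacna1e, the R-type pore, fell to 1.36, 1.21 and 0.562 CPM in DAPT libraries, against 3.86, 2.49 and 4.81 CPM in DMSO libraries (log2 fold change -1.81 ± 0.40, edgeR adjusted p = 0.0113). Cacna1a, the P/Q-type pore, and Cacna1h, a T-type pore, were lower in DAPT libraries without overlap, and neither passed the test (adjusted p = 0.125 and 0.115 in edgeR).

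Among the cytosolic beta subunits, which bind the pore and bring it to the membrane, 2 rose and 1 fell. Cacnb2, a beta subunit of cardiac and hair cell channels, was at 78.8, 84.9 and 53.1 CPM in DAPT and 28.4, 32.3 and 35.6 CPM in DMSO libraries (log2 fold change 1.17 ± 0.18, edgeR adjusted p = 0.00148). Cacnb3, widely expressed in neurons and smooth muscle, was at 86.1, 81.1 and 82.7 CPM in DAPT and 53.6, 44.3 and 44.9 CPM in DMSO libraries. Its change was small and even across libraries (log2 fold change 0.81 ± 0.10, edgeR adjusted p = 0.000471). Cacnb4 fell to 2.36, 1.89 and 2.81 CPM in DAPT libraries, against 4.24, 5.80 and 9.27 CPM in DMSO libraries (log2 fold change -1.46 ± 0.34, edgeR adjusted p = 0.0132), a call lost without DAPT replicate 1 or 2. Cacnb1 had means of 5.49 ± 1.4 CPM with DAPT and 5.96 ± 1.47 CPM with DMSO.

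The alpha2delta subunits are extracellular proteins that raise surface expression of calcium channels, and Cacna2d1 is the target of gabapentin. Cacna2d1 was at 2.72, 3.02 and 4.68 CPM in DAPT and 6.22, 5.63 and 8.64 CPM in DMSO libraries. It fell in the full fit (log2 fold change -0.98 ± 0.28, edgeR adjusted p = 0.0353), but not after leaving out DMSO replicate 1 or 3, or DAPT replicate 1 or 2. Cacna2d2 was at 14.7, 19.7 and 7.4 CPM in DAPT and 10.7, 9.53 and 10.4 CPM in DMSO libraries, so the groups overlapped through DAPT replicate 3. Cacna2d3 and Cacna2d4 also overlapped between the groups.

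Adjacent Cacng genes on chromosome 11 moved in opposite directions. Cacng5, a TARP, was at 39.0, 52.6 and 43.1 CPM in DAPT libraries, against 3.02, 3.56 and 5.17 CPM in DMSO libraries (log2 fold change 3.51 ± 0.21, edgeR adjusted p = 9.47e-06). Cacng4, a TARP gene 79.9 kb away from Cacng5, was at 11.4, 11.5 and 19.7 CPM in DAPT and 35.6, 25.5 and 30.0 CPM in DMSO libraries. It fell (log2 fold change -1.10 ± 0.23, edgeR adjusted p = 0.00809), and DAPT replicate 3 was again the library nearest to DMSO. Cacng1, a skeletal muscle gamma subunit on the other side of Cacng4, was not tested. It had 3 counts in the DAPT group and 22 in the DMSO group, a ratio of 0.132 with a 95% counting interval of 0.0254 to 0.441. Of 8 markers of muscle and pericytes, which summed to 10.7 to 12.7 CPM in DAPT and 109 to 164 CPM in DMSO libraries, 5 were tested and did not move together. Pdgfrb, a pericyte and fibroblast receptor, made up most of the sum and fell to 6.71 CPM in DAPT libraries, against 133 CPM in DMSO libraries. Rgs5 also fell, Cspg4 rose (1.79 CPM in DAPT and 0.546 CPM in DMSO libraries), and the smooth muscle genes Tagln (1.16 CPM in DAPT and 1.27 CPM in DMSO libraries) and Myh11 (1.06 CPM in DAPT and 0.917 CPM in DMSO libraries) overlapped. The part of these markers in the Cacng1 difference was not tested.

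At 48 h, 5 channel genes were higher in permissive cells than in both other groups, and most of those tested were called in neither comparison. Again 20 genes passed the filter, 17 of them the ones tested at 24 h. Against control, 5 rose in permissive cells, where 5.72% of all 13411 genes rose, and 1 fell, where 7.28% of all genes fell. Against nonpermissive cells the same 5 genes (Scn11a, Scn3b, Cacna1b, Cacnb2 and Cacng5) were higher, where 6.78% of all genes were, and 1 was lower, where 6.35% were. These comparisons share the permissive libraries. The median log2 fold change of the 20 genes was -0.89 in permissive over control and -0.37 in permissive over nonpermissive cells, against 0.0611 and -0.000994 over all genes.

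Nonpermissive cells, exposed to DAPT as well, differed from control in 1 channel gene. Scn11a rose, where 0.0671% of all genes did, and 0 fell in edgeR, where 0.127% of all genes fell. At an unadjusted p under 0.05, 1 gene was lower (Cacna2d4), and DESeq2 also called 0 lower. Both 48 h comparisons against control rest on the same 2 control libraries.

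Scn11a was at 381, 387 and 444 CPM in permissive libraries, at 4.47, 2.85 and 5.12 CPM in nonpermissive libraries, and at 0.187 and 0 CPM in control libraries. The 3 groups were each separate from the next. With 1 count in the control group, the ratio of permissive over control was 3520 with a 95% counting interval of 632 to 139000, and that of nonpermissive over control 38.7 with an interval of 6.53 to 1570. The interval covers counting error only. Permissive over nonpermissive gave a log2 fold change of 6.56 ± 0.50 (edgeR adjusted p = 2.5e-05). For nonpermissive over control the edgeR adjusted p was 0.0267, and the call was lost without control replicate 1 or 2, without nonpermissive replicate 1 or 3, and in a fit of the 2 groups alone. Hair cell markers, which summed to 91.6 to 169 CPM in nonpermissive and 20.6 to 36.5 CPM in control libraries, were higher there too in 2 of 10 cases; their part in this difference was not tested.

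The other sodium pores were low at 48 h. Scn8a was at 27.9, 19.1 and 6.07 CPM in permissive, 5.58, 0.571 and 4.48 CPM in nonpermissive, and 4.86 and 0.285 CPM in control libraries. Permissive values were the higher ones without overlap, and the test passed in neither comparison (adjusted p = 0.149 over nonpermissive and 0.14 over control, edgeR). With the replicate number as a block, Scn8a passed over control at an adjusted p of 0.0491. Scn9a, which rose at 24 h, had 1 count in each of the 3 groups.

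Of the 2 sodium channel beta subunits tested at 48 h, 1 was higher in permissive cells. Scn3b, which had not passed at 24 h, was at 26.6, 39.5 and 14.2 CPM in permissive, 1.12, 5.14 and 0.32 CPM in nonpermissive, and 0 and 0.571 CPM in control libraries. Permissive over nonpermissive gave 3.73 ± 0.97 on the log2 scale (edgeR adjusted p = 0.0202). Over control, with 2 control counts, the ratio was 121 with a 95% counting interval of 33.2 to 1000 (edgeR adjusted p = 0.00622). Scn3b lost its call over control without control replicate 1, and its call over nonpermissive cells without nonpermissive replicate 1 or 3 or permissive replicate 2. Scn2b went the other way without passing, with means of 0.743 ± 1.11 CPM in permissive, 2.26 ± 0.59 in nonpermissive and 5.15 ± 2.00 in control cells.

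**Figure D2:**
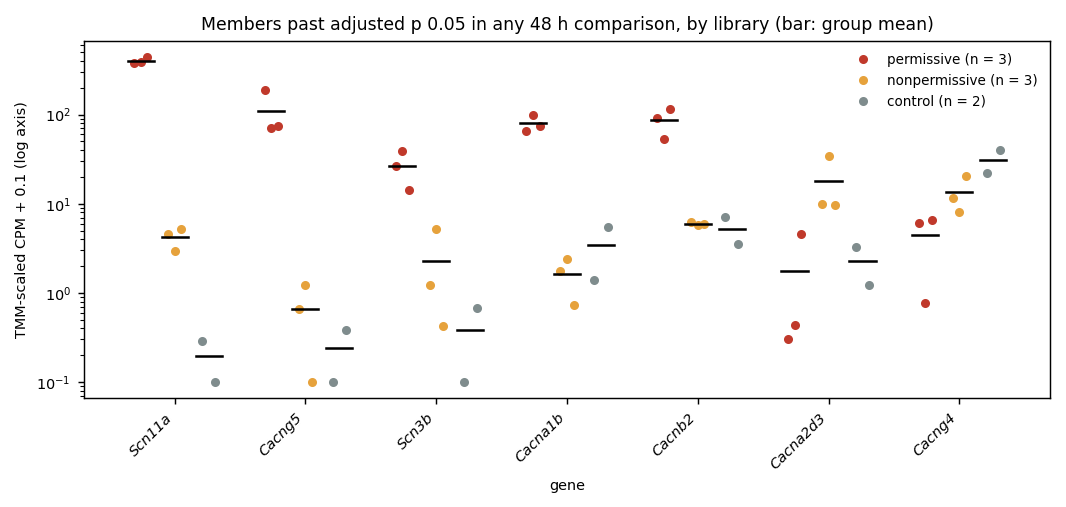
The 7 channel genes past adjusted p 0.05 in any 48 h comparison: each point is the TMM-scaled CPM of 1 library plus 0.1 on a log axis, for permissive (n = 3), nonpermissive (n = 3) and control (n = 2) cells from left to right, and bars are group means. For 5 genes all permissive points lie above all other points. Cacng4 has its highest points in control and Cacna2d3 in nonpermissive cells. The genes were chosen by the test on these same libraries, so this separation adds no evidence.

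Cacna1b was the only calcium channel pore called at 48 h. It was at 66.0, 99.7 and 74.0 CPM in permissive, 1.68, 2.28 and 0.64 CPM in nonpermissive, and 1.31 and 5.42 CPM in control libraries. The log2 fold change was 5.74 ± 0.70 over nonpermissive (edgeR adjusted p = 0.000195) and 4.60 ± 0.76 over control (adjusted p = 0.0014). The other 5 pores tested at 48 h had negative fold changes in permissive over control cells, none past the threshold. Of these, Cacna1a was at 2.68, 1.34 and 4.04 CPM in permissive and at 1.31 and 22.5 CPM in control libraries, and Cacna1g, a T-type pore, at 0.413, 0 and 3.64 CPM in permissive and 2.06 and 21.4 CPM in control libraries. Control replicate 2 was the high library for both, and its mesenchyme markers summed to 2490 CPM, against 497 CPM in control replicate 1; their part was not tested. Cacna1e, which fell at 24 h, was at 1.03, 0 and 0.809 CPM in permissive, 1.12, 1.71 and 0.96 CPM in nonpermissive, and 4.30 and 5.42 CPM in control libraries, at an edgeR adjusted p of 0.142 for permissive over control.

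Cacnb2 was at 92.6, 53.2 and 116 CPM in permissive, 6.14, 5.71 and 5.76 CPM in nonpermissive, and 6.92 and 3.42 CPM in control libraries. The last 2 groups overlapped, and permissive cells stood above both, by 3.88 ± 0.53 over nonpermissive (edgeR adjusted p = 0.000402) and 4.05 ± 0.63 over control (adjusted p = 0.00089) on the log2 scale. Cacnb3 was high in all groups, at 53.2, 39.8 and 83.7 CPM in permissive, 73.4, 46.8 and 72.6 CPM in nonpermissive, and 35.0 and 25.1 CPM in control libraries. Permissive and nonpermissive cells overlapped, and with a log2 fold change of -0.13 ± 0.44 between them no difference was detected. Cacnb3 over control did not pass in permissive (adjusted p = 0.252) or nonpermissive cells (adjusted p = 0.676, both edgeR).

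The chromosome 11 pair kept opposite directions. Cacng5 was at 188, 71.0 and 74.0 CPM in permissive, 0.558, 1.14 and 0 CPM in nonpermissive, and 0 and 0.285 CPM in control libraries. Nonpermissive and control libraries were near 0. Permissive over nonpermissive gave a log2 fold change of 7.73 ± 0.87 (edgeR adjusted p = 0.00013), and permissive over control, with 1 control count, a ratio of 1120 with a 95% counting interval of 201 to 44400 (edgeR adjusted p = 0.000211). Cacng4 fell to 5.98, 0.669 and 6.47 CPM in permissive cells, against 21.9 and 40.5 CPM in control cells, with 11.4, 7.99 and 20.5 CPM in nonpermissive cells. Its log2 fold change over control was -2.82 ± 0.80 (edgeR adjusted p = 0.0329), a call lost without control replicate 1 or 2 or permissive replicate 2, and permissive over nonpermissive did not pass (adjusted p = 0.193). Schwann cell and satellite glia markers moved alongside, summing to 111 to 277 CPM in permissive, 537 to 776 in nonpermissive and 522 to 973 in control libraries; their part was not tested. Cacng2 (stargazin, a TARP) reached 14.7 CPM in permissive replicate 2 and 1.03 and 0 CPM in the other permissive libraries, and did not pass the filter. With no filter it was called higher in permissive cells over nonpermissive (adjusted p = 0.0319) and over control cells (adjusted p = 0.0137, both edgeR).

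Among alpha2delta subunits, Cacna2d3 was called in permissive over nonpermissive cells. It was at 0.206, 0.335 and 4.45 CPM in permissive, 9.77, 34.3 and 9.6 CPM in nonpermissive, and 3.18 and 1.14 CPM in control libraries. Nonpermissive replicate 2 was the highest, and all nonpermissive values were above all others. Markers of mesenchyme, 7 in all, moved alongside, summing to 46.8, 148 and 540 CPM in permissive, 1340, 3370 and 1780 CPM in nonpermissive, and 497 and 2490 CPM in control libraries. Of the 6 tested, 2 were lower in permissive than in nonpermissive cells, Lum (58.4 CPM in permissive and 1490 CPM in nonpermissive cells) and Dcn (62.1 CPM in permissive and 529 CPM in nonpermissive cells), while Col1a1 was near 0 in both (1.13 CPM in permissive and 1.03 CPM in nonpermissive cells). Their part in the Cacna2d3 difference was not tested. The log2 fold change of permissive over nonpermissive was -3.49 ± 1.09 (edgeR adjusted p = 0.0485), lost without any 1 of the 3 nonpermissive libraries or without permissive replicate 1 or 2, and that of nonpermissive over control was 2.99 ± 1.21 (adjusted p = 0.591). Cacna2d1, which fell at 24 h, overlapped between all 3 groups at 48 h, with means of 4.66 ± 4.49 CPM in permissive, 7.66 ± 5.34 in nonpermissive and 10.0 ± 4.08 in control cells.

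**Figure D3:**
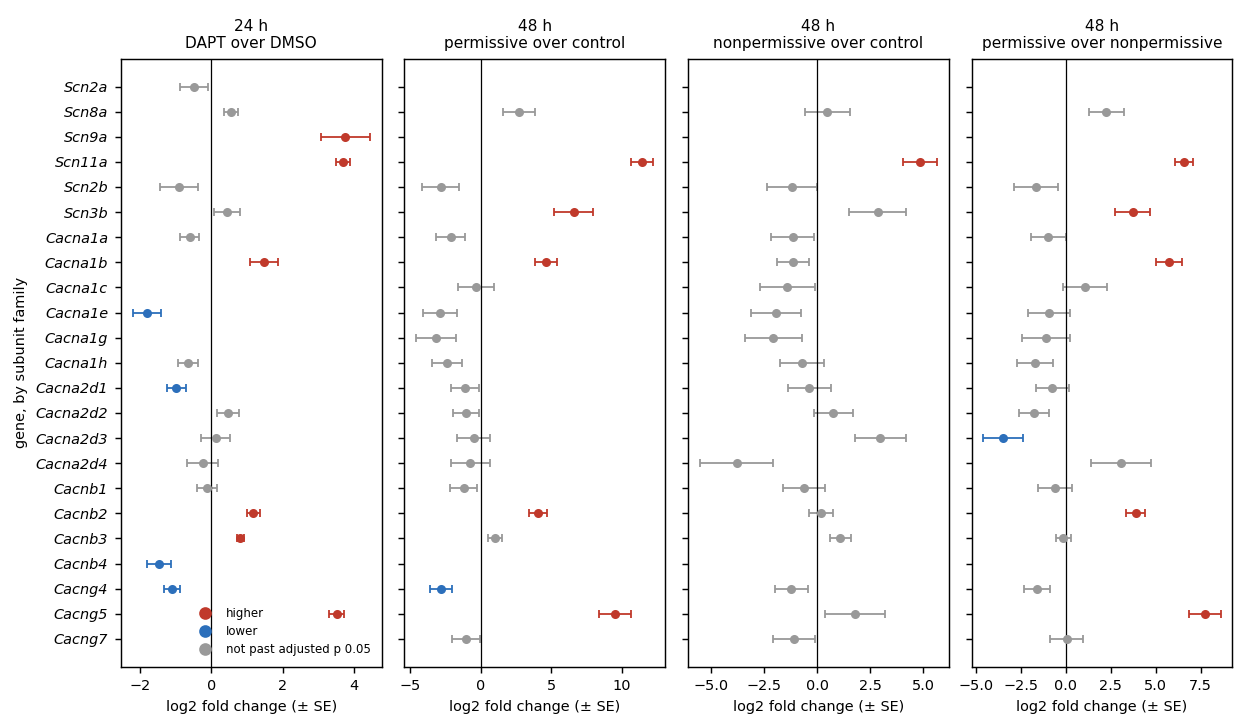
Log2 fold changes with SE of every channel gene tested, in 4 comparisons, genes by subunit family down the page; red is higher and blue lower at adjusted p under 0.05, grey did not pass, and a missing point was not tested. The x scales differ between panels. Scn11a is the gene furthest right at 48 h, at 11.42 in permissive over control, where its control group holds 1 count.

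The genes that were never called were mostly low. In all, 12 of the 37 genes passed in at least 1 comparison and 25 in none; 14 were too low to test at either time. At 24 h the untested genes reached at most 3.77 CPM in a library, and at 48 h at most 14.7 CPM. Cacna1i (a T-type pore), Scn4b and Scn7a (a sodium-sensing relative of the pores) had no counts at 24 h. Cacna1f (retinal L-type pore), Cacna1s (skeletal muscle L-type pore), Cacng1, Cacng6 and Scn7a had none at 48 h. The remaining untested genes at both times were Cacng2, Cacng3, Cacng8, Scn10a, Scn1a, Scn3a and Scn4a. Cacna1c, the L-type pore of heart and smooth muscle, and Cacng7, a TARP, were tested at 48 h and overlapped between groups.

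Levels per length, in the deposited TPM, give the order of the channel genes within each group. In permissive cells Scn11a led at 113 ± 33.3 TPM, followed by Cacna1b at 89.0 ± 130 and Cacng5 at 57.4 ± 52.8 TPM (SD, n = 3 each). The spreads of these 3 overlapped between libraries. Within each permissive library Scn11a (148, 81.3 and 110 TPM) was above Cacng5 (118, 24.2 and 29.8 TPM). Cacna1b was above Scn11a in permissive replicate 2 alone (239 TPM). In nonpermissive cells Cacnb3 led at 42.2 ± 21.8 TPM and no other channel gene reached 10 TPM. In control cells Cacnb3, at 22.1 ± 10.1 TPM, Cacng4, at 15.9 ± 3.10 TPM, and Cacna1a, at 10.8 ± 14.7 TPM (n = 2), did not differ beyond their spread. Cacnb3 was highest in control replicate 1 (29.3 TPM), and Cacna1a was highest in control replicate 2 (21.2 TPM, against 0.35 TPM in control replicate 1). Cacnb3 was also first at 24 h, at 61.6 ± 2.77 TPM in DAPT and 35.3 ± 3.44 TPM in DMSO cells, and in DAPT cells it did not differ from Cacnb2, at 54.3 ± 14.3 TPM, beyond their spread. Channel genes at or above 10 TPM numbered 5 in DAPT and 3 in DMSO cells, and 6 in permissive, 1 in nonpermissive and 3 in control cells.

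Summed over the 12 sodium channel genes, TPM was 43.6 ± 9.8 in DAPT and 19.4 ± 0.543 in DMSO cells, and 134 ± 37.7 in permissive, 6.16 ± 2.67 in nonpermissive and 4.96 ± 0.714 in control cells. The 25 calcium channel genes summed to 173 ± 14.3 TPM in DAPT and 107 ± 3.56 TPM in DMSO cells, and to 251 ± 74.9 in permissive, 81.8 ± 46.3 in nonpermissive and 84.0 ± 4.29 in control cells. The sodium channel sum was higher in every permissive library than in any nonpermissive or control library. Scn11a made up much of this sum in DAPT and permissive cells. At 24 h it was at 24.9, 24.3 and 19.8 TPM in DAPT and 1.98, 1.28 and 2.15 TPM in DMSO libraries. Scn3b (14.8, 13.7 and 5.13 TPM in DAPT, 8.42, 8.58 and 9.08 TPM in DMSO libraries) and Scn8a overlapped there. The 24 h difference in the sum is thus mainly that of Scn11a and not of the family. The calcium channel sum in permissive cells rests in part on Cacna1b, whose TPM and CPM differed. Its TPM was 17.1, 239 and 11.0 in permissive libraries, and the effective length in the deposited table was 8437, 493 and 9447 bases in the same libraries. Without Cacna1b, an alternative chosen after seeing these values, the calcium channel genes summed to 261, 69.3 and 155 TPM in permissive, 133, 43.9 and 67.6 TPM in nonpermissive, and 80.7 and 86.1 TPM in control libraries. The groups then overlapped, permissive replicate 2 being below both control libraries. At 24 h the effective length of Cacna1b was 8054 to 9550 bases in DAPT and 2567 to 4574 bases in DMSO libraries, and its TPM of 1.5, 1.51 and 4.76 in DAPT libraries overlapped the 2.03, 1.73 and 3.49 in DMSO libraries.

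Some genes for proteins that bind or steer these channels passed the test as well. Of 14 sodium channel partners 12 were tested at 24 h, and 4 rose and 1 fell with DAPT, where 11.5% of all genes rose and 14.2% fell. Fgf11, an intracellular FGF that binds sodium channel tails, averaged 43.4 CPM with DAPT and 11.8 CPM with DMSO (log2 fold change 1.87 ± 0.20, edgeR adjusted p = 0.000247). Ank3, the ankyrin that anchors sodium channels at axon initial segments, averaged 440 CPM with DAPT and 227 CPM with DMSO (0.96 ± 0.09, adjusted p = 0.00013). At 48 h, 2 of 10 tested rose and 2 fell in permissive over control cells (5.72% and 7.28% of all genes), and 3 rose and 3 fell over nonpermissive cells (6.78% and 6.35% of all genes). Fgf11 averaged 42.2 CPM in permissive, 3.70 in nonpermissive and 3.02 in control cells (edgeR adjusted p = 0.00104 over nonpermissive and 0.00186 over control). The sodium leak channel Nalcn fell to 8.65 CPM in permissive cells, against 71.5 in nonpermissive and 41.2 in control cells, while its accessory subunit Unc80 rose to 13.3 CPM, against 0.673 and 0.708 CPM in those groups.

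Of 20 calcium channel partners and regulators, 6 rose and 2 fell with DAPT among 13 tested at 24 h (11.5% and 14.2% of all genes). In permissive over control cells 4 rose and 1 fell among 11 tested (5.72% and 7.28% of all genes). Over nonpermissive cells 5 rose and 0 fell in edgeR, where 6.78% and 6.35% of all genes did (1 was lower at an unadjusted p under 0.05). Rimbp2, a linker between calcium channels and release sites, averaged 33.5 CPM with DAPT and 11.7 CPM with DMSO, and 65.1 CPM in permissive, 0.98 in nonpermissive and 1.74 in control cells. Rims2, a release site scaffold, averaged 93.4 CPM in permissive, 4.08 in nonpermissive and 4.36 in control cells. Rem1, a small GTPase that inhibits calcium channels, averaged 8.42 CPM in permissive cells and had 0 counts in both other groups. Tspoap1, a relative of Rimbp2, went the other way, averaging 4.89 CPM in DAPT and 15.3 CPM in DMSO libraries, and at 0.138 CPM in permissive and 9.96 CPM in control cells.

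Of 13 genes for release and store-operated entry of calcium, 4 rose and 3 fell with DAPT among 12 tested (11.5% and 14.2% of all genes). In permissive cells 2 rose and 1 fell over control (5.72% and 7.28% of all genes), and 2 rose and 1 fell over nonpermissive cells (6.78% and 6.35% of all genes), again among 12. The inositol trisphosphate receptors Itpr3 and Itpr2 moved in opposite directions. Itpr3 averaged 137 CPM with DAPT and 27.1 CPM with DMSO, and 148 in permissive, 8.07 in nonpermissive and 12.0 CPM in control cells. Itpr2 fell to 100 CPM with DAPT, against 268 CPM with DMSO, and to 16.0 CPM in permissive cells, against 147 in nonpermissive and 224 CPM in control cells. None of the genes in these 3 lists passed in nonpermissive over control cells (edgeR; at an unadjusted p under 0.05, 0 were higher, and 2 sodium channel partners and 1 calcium channel partner were lower).

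Peak lists at 48 h were searched within 10 kb of the channel genes. Peaks of the 6 libraries of an assay were merged where they overlapped, and a region was called permissive only where both permissive lists and none of the other 4 held a peak. Near the 5 genes higher in permissive cells, 8 of 155 ATAC regions (5.16%) were permissive only, against 33 of 1077 (3.06%) near the other channel genes and 2.54% of regions near all genes tested at 48 h. For H3K27ac the counts were 7 of 126 (5.56%), against 12 of 346 (3.47%) and 2.81% near all genes. The reverse pattern, a peak in all 4 other lists and in neither permissive list, held for 1 of 155 ATAC regions near the 5 genes and 8 of 1077 near the others (0.974% near all genes), and for 0 and 1 H3K27ac regions (0.751% near all genes). Counting only peaks with a deposited −log10 q of at least 5, 2 ATAC regions and 0 H3K27ac regions near the 5 genes were permissive only. The share near all genes was not computed at that threshold, so these 2 counts cannot be set against a background. With 2 lists a group no test was made, and list lengths differed (ATAC 86995 in permissive replicate 1 and 170918 in replicate 2; H3K27ac 46161 to 114533).

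**Figure D4:**
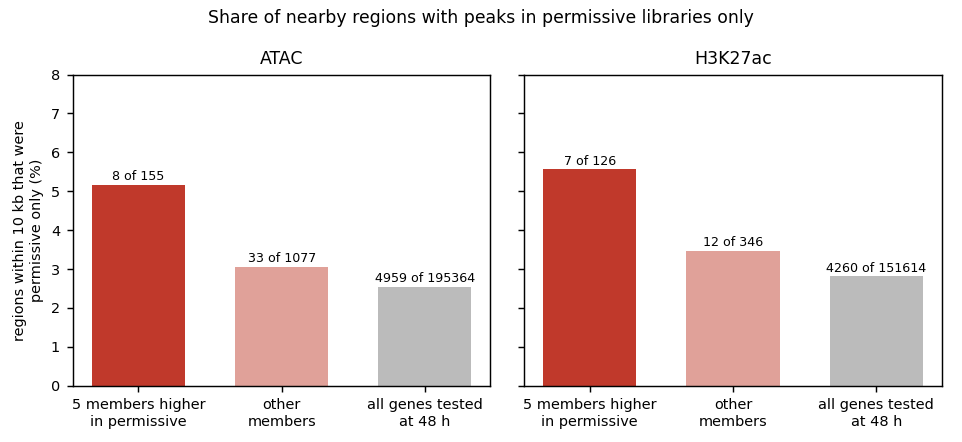
Percentage of merged ATAC and H3K27ac regions within 10 kb that had a peak in both permissive lists and in no other list, for the 5 channel genes higher in permissive cells, the other channel genes and all genes tested at 48 h; counts of regions stand above the bars. The bars of the 5 genes reach 5.16% and 5.56%, against 2.54% and 2.81% for all genes.

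At Scn11a the permissive-only H3K27ac region chr9:119823818-119825880 covered the start site and the upstream sequence shown above. The authors' fold over local background was 18.52 in permissive replicate 1 and 3.19 in permissive replicate 2. ATAC peaks at the same start were present in both permissive lists (fold 6.85 and 16.93), in nonpermissive replicate 2 (5.61) and in control replicate 1 (2.95), so accessibility there was not limited to permissive lists. A permissive-only ATAC region lay within the gene at chr9:119804834-119805254, 20202 bases downstream of the start (fold 2.71 and 6.80).

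Cacng5 had a region that was permissive only in both assays. It lay 2669 bases upstream of the start, outside any annotated gene, at chr11:107917724-107918479 in ATAC (fold 3.94 and 7.76) and chr11:107917385-107919296 in H3K27ac (fold 18.85 and 4.78). The start site whose sequence is shown above had ATAC peaks in all 6 lists (fold 2.42 to 5.28). Cacng4, its lower neighbour, had 1 permissive-only ATAC region, within the gene at chr11:107743139-107743631 (fold 2.37 and 9.44), and no permissive-only H3K27ac region.

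Cacna1b likewise had a region that was permissive only in both assays. It lay within the gene, 18306 bases downstream of the start, at chr2:24744218-24744846 in ATAC (fold 3.19 and 9.59) and chr2:24744099-24745150 in H3K27ac (fold 4.63 and 3.19). The Cacna1b start had ATAC peaks in all 6 lists and an H3K27ac peak in permissive replicate 1 alone (fold 3.97). Such overlapping pairs were also found near Cacna2d4, Cacna1e, Cacna1g and Scn4a, none of them called higher in permissive cells. Near all channel genes 41 ATAC regions were permissive only. A single one at each of Cacng5, Cacna1b, Cacna2d4, Cacna1e, Cacna1g and Scn4a overlapped a permissive-only H3K27ac region. That share is close to the one over all 8704 permissive-only ATAC regions, 13.9%, so such pairs were not particular to channel genes.

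Cacnb2 had 2 permissive-only ATAC regions, within the gene at chr2:14770279-14771049 (fold 6.09 and 13.85) and chr2:14800840-14801431 (fold 3.55 and 12.78), neither overlapping its 3 permissive-only H3K27ac regions. Its outer start, whose sequence is shown above, had ATAC peaks in all 6 lists and H3K27ac peaks in 5. Scn3b had no permissive-only region in either assay. It held the 1 ATAC region near the 5 genes that was absent from permissive lists alone, chr9:40291445-40292245 across one end of the gene (fold 4.05 and 7.74 in nonpermissive lists, 5.10 and 4.20 in control lists). Among genes not higher at 48 h, Cacnb3 had 2 permissive-only H3K27ac regions of 4 nearby, chr15:98628078-98629650 (fold 9.92 and 5.58) and chr15:98634001-98634624 (fold 4.96 and 4.78). Cacna1e had 3 of the 9 ATAC regions absent from permissive lists alone, beside 2 permissive-only ones. Most permissive-only H3K27ac peaks were weak in permissive replicate 2, with a deposited −log10 q of 1 or less in 7 of the 10 such regions near genes called in any comparison.

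**Figure D5:**
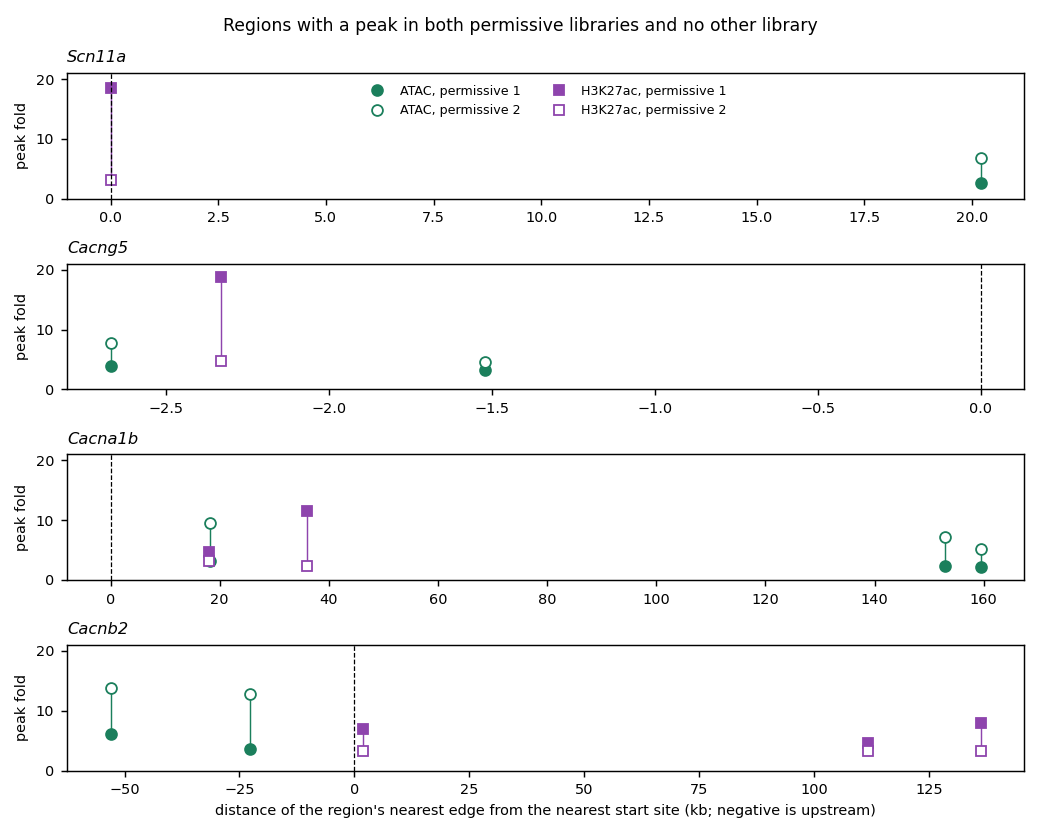
Permissive-only regions near Scn11a, Cacng5, Cacna1b and Cacnb2: the x axis is the distance in kb from the nearest start site to the nearest edge of the region, negative upstream, and the y axis the deposited fold over background, filled for permissive replicate 1 and open for replicate 2, ATAC green circles and H3K27ac purple squares. ATAC folds are higher in permissive replicate 2 and H3K27ac folds in permissive replicate 1 in every region plotted.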

How the data were processed

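RNA was measured in 14 libraries, and ATAC and H3K27ac in 6 each. The authors deposited RSEM tables with an expected count and a TPM value per gene and library. The tools listed in the submitters' processing notes are RSEM, STAR and DESeq2 beside the RNA libraries, MACS2 and Bowtie2 beside both peak assays, and UMI-tools beside H3K27ac, on build mm10; versions: not given in the sources used here. Peak lists were deposited singly for each library and hold a fold over local background, a ratio, and −log10 p and q values. Symbols came from a RefSeq table and matched 48349 of 48709 identifiers.

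Expected counts were rounded, filtered with filterByExpr, TMM scaled and tested with edgeR 4.0.16 (R 4.3.3), 24 h alone and the 8 libraries of 48 h in 1 model, with Benjamini-Hochberg adjustment over all genes tested and a threshold of 0.05. The code was checked on simulated counts. Depth limits low genes most: 1 to 3 counts in a group are given as a ratio with an exact 95% counting interval. Full values are given for members past the threshold in any of the 4 comparisons. Same-numbered 48 h libraries of permissive and nonpermissive cells deviated together clearly in replicate 1 and weakly in the others (r = 0.53, 0.13 and 0.12 over 9479 genes). The main fits did not pair libraries by number. DESeq2 1.42.0, RLE scaling, no filter, a replicate block, fits of the 2 groups alone, leave-one-out fits, and other peak thresholds and windows were alternatives. The members and gene lists were chosen with earlier results of these data known. Some genes of these families are not reported here.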

Additional observations from a re-analysis of the deposited data

How the results depend on the processing

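Over 269 log2 fold changes of called channel genes under alternatives, 243 kept their direction and side of the threshold, 26 kept their direction and lost the threshold, and 0 reversed; 25 of the 26 came from leaving out a library, where fewer samples are fitted. With no filter on low counts, 7 channel genes were higher and 6 lower with DAPT at 24 h, Scn10a being added among the higher and Cacna1c and Scn3a among the lower. At 48 h the same setting gave 6 higher and 2 lower in permissive over control cells and 6 higher and 1 lower over nonpermissive cells, with Cacng2 added among the higher in both and Cacna1g among the lower over control. In a fit of the 2 groups alone, 0 were higher in nonpermissive than in control cells; the cause was not tested. Leaving out 1 library gave 5 to 9 higher and 2 to 5 lower with DAPT at 24 h (2 lower without DAPT replicate 1 or 2), 4 to 5 higher and 0 to 3 lower in permissive over control cells, 0 to 1 higher and 0 lower in nonpermissive over control cells, and 4 to 5 higher and 0 to 1 lower in permissive over nonpermissive cells. The 3 lower genes in permissive over control cells came without permissive replicate 3 and included Cacna1g and Scn2b.

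With the replicate block the counts were 6 higher and 4 lower at 24 h, 6 and 1 in permissive over control, 1 and 0 in nonpermissive over control, and 5 and 1 in permissive over nonpermissive cells; Scn8a in permissive over control cells was the added call. Same-numbered libraries at 24 h did not deviate together (r = -0.02, -0.07 and -0.06). In permissive and nonpermissive cells, permissive replicate 2 correlated slightly better with nonpermissive replicate 3 (0.16) than with its own number (0.13).

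Permissive-only ATAC regions numbered 8 near the 5 higher genes and 41 near all channel genes, and 2 and 14 at a −log10 q of at least 5. H3K27ac regions numbered 7 and 19, but 0 and 0 at that threshold and 12 and 30 within 50 kb, and 12 near all channel genes with 100 bp around summits. Shares near all genes were computed for the main setting only. Leaving out 1 list gave 8 to 56 and 42 to 264 ATAC regions, and 7 to 74 and 19 to 169 H3K27ac regions. The high values came without 1 permissive list (ATAC 56 and 264 without replicate 1, 19 and 150 without replicate 2; H3K27ac 27 and 169, 74 and 159), since the pattern then rests on a single permissive list.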
